A study of Mus musculus with 6 samples.

Results

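The genes described here were the 4 Janus kinases Jak1, Jak2, Jak3 and Tyk2 and the 6 suppressors of cytokine signaling Socs1, Socs2, Socs3, Socs5, Socs6 and Socs7. They were chosen by symbol, and all 10 were among the 32285 genes of the deposited count matrices. Single nuclei were sequenced from retinas of rd10 mice (strain B6.CXB1-Pde6b-rd10/J), which carry a mutation in the rod phosphodiesterase gene Pde6b and lose their rods from the third postnatal week. All animals carried that mutation, and no wild-type or uninjected retina was among the samples. Retinas received an intravitreal injection at postnatal day 18 (P18) of either saline or recombinant IL-27 protein and were collected at P20, giving 3 libraries per group. The labels number the saline libraries 1, 2 and 6, and the libraries of the IL-27 retinas carry the numbers 4, 5 and 10. The labels do not say whether a library came from 1 retina or from several.

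Cytokine receptors of the IL-6 and IL-12 family have no enzyme of their own. A Janus kinase is bound to the inner part of each receptor chain, is switched on when the ligand brings the chains together, and phosphorylates STAT transcription factors, which then move to the nucleus. The IL-27 receptor pairs a chain of its own with gp130, the chain shared by the IL-6 family, and signals through Jak1, Jak2 and Tyk2 to STAT proteins. SOCS proteins close the loop. Socs1 and Socs3 are induced by STATs and block the kinases directly, Socs2 restrains growth hormone signaling, and Socs5, Socs6 and Socs7 act mainly on receptor tyrosine kinase and insulin signaling through the ubiquitin ligase that the SOCS box recruits. In the retina, Socs3 in Muller glia and photoreceptors is known as a brake on gp130 signaling.

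Because Socs3 is the best known STAT target among these genes, its promoter is shown. The RefSeq table (build GRCm38.p6) held the window from 250 bases before to 50 bases after the start for 6 of the 10 genes (Jak1, Jak2, Jak3, Tyk2, Socs1 and Socs3). The STAT core motif TTCNNNGAA, which reads the same on both strands, was searched in each. It was found once, in Socs3 (chr11:117969317-117969616, minus strand), 154 bases before the start, and the match is in capitals:

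Socs3: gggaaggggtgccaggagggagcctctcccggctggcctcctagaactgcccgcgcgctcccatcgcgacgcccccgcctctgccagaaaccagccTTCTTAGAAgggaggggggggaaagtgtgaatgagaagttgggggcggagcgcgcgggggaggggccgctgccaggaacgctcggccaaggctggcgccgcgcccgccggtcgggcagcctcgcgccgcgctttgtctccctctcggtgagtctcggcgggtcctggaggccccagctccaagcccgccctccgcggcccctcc

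Of all 32851 promoters of this length in the table, 8.3% held the motif. The absence of these letters from the other 5 windows says nothing about STAT binding there.

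Of 56634 barcodes, 52174 nuclei were kept and assigned to 11 cell types by marker genes. These were 15550 rods, 3319 cones, 10423 bipolar cells (BC), 12613 amacrine cells (AC), 493 horizontal cells (HC), 2190 retinal ganglion cells (RGC), 5426 Muller glia, 298 astrocytes, 1546 microglia, 217 endothelial cells and 99 pericytes. Each named cluster met at least 3 markers of its type, and both astrocyte clusters met 5 astrocyte markers and also 7 or 8 Muller markers. The libraries held between 36678332 and 48260748 UMIs, and IL-27 replicate 10 was the shallowest, with a median of 2782 UMIs per nucleus. Muller glia made up 11.6 ± 1.26% of nuclei in the saline libraries and 9.16 ± 0.664% in the IL-27 libraries (SD, n = 3 each, exact permutation p = 0.1, the smallest possible with 3 against 3). That share includes the Muller subcluster marked by Fbln1, described below. It made up 17.6 ± 5.39% of Muller nuclei in the saline libraries and 4.73 ± 6.30% in the IL-27 libraries (exact permutation p = 0.2). How far it accounts for the lower Muller share was not tested. Xist was at 2033 CPM in saline replicate 2 and 1993 CPM in IL-27 replicate 5 and at most 0.397 CPM in the other 4 libraries, so the libraries differed in the sex of the animals, with 1 such library in each group. Any pair of libraries shared 14 to 27 barcodes.

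In all, the 10 genes accounted for 75795 of 199917462 summed UMIs. Jak1 (16526 UMIs), Socs7 (16894), Jak2 (11454), Socs5 (8643), Socs6 (7837), Socs2 (7116) and Tyk2 (5308) were well covered. Socs3 (1351), Socs1 (437) and Jak3 (229) were sparse, and every value of these 3 genes rests on few molecules. Levels are given as counts per 1000000 UMIs (CPM) of the sum over a cell type in a library, and they are compared only between cell types or libraries, not between genes, since nuclear UMI counts were not corrected for gene length.

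The 10 genes had distinct cell type patterns. Jak1, Jak2, Tyk2 and Socs6 were highest in microglia, Socs2 in BC, Socs5 in cones, Socs7 in rods and cones, and Socs3 in astrocytes, Muller glia and photoreceptors. Each cell type was tested against the mean of the other types in edgeR's quasi-likelihood model with the library as a term. Of 110 pairs of a gene and a type, 30 lay above and 25 below the other types at an adjusted p under 0.05. For the 7 genes with a UMI in every type, 22 of 77 pairs lay above and 25 below. The types were drawn without these 10 genes, but from other genes of the same nuclei, so these tests are not independent of the clustering. Microglia had 6 of the 10 genes above the other types, where 34.9% of all genes were above. Muller glia had 5 (background 35.6%), rods 3 (42.1%), cones 3 (36.7%), AC 3 (41%), RGC 3 (40.9%), BC 2 (39.4%), endothelial cells 2 (13.9%), HC 1 (26.7%), astrocytes 1 (18.3%) and pericytes 1 (7.74%). The counts include Jak3 in microglia and endothelial cells, Socs1 in microglia and RGC, and Socs3 in rods, cones, Muller glia and astrocytes. Each of these 3 genes had no UMI in at least 1 type, so its fitted difference from the mean of the other types is no bound. The counts and shares are read only as descriptions.

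**Figure D1:**
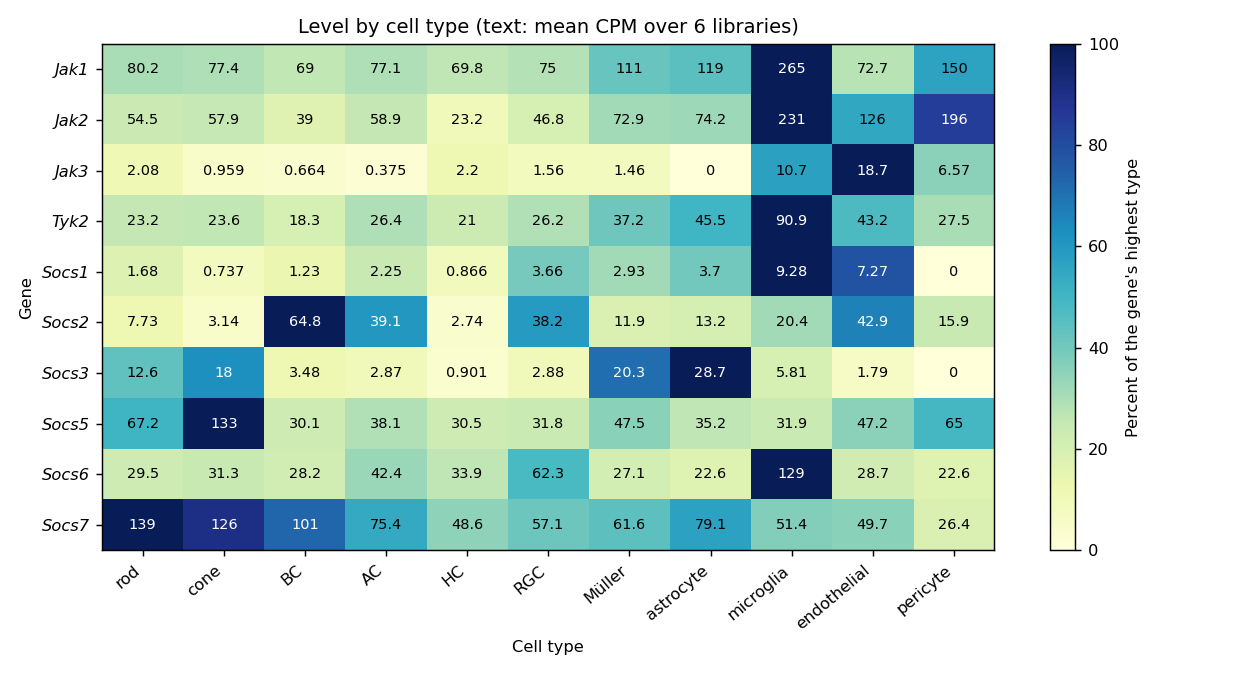
Heat map of the mean CPM over 6 libraries, printed in each cell, with the 10 genes as rows and the 11 cell types as columns. The colour gives the level as a percent of the gene's highest type. Jak1 reaches 265 CPM and Jak2 231 CPM in microglia, Socs2 64.8 CPM in BC, Socs5 133 CPM in cones and Socs7 139 CPM in rods.

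Among the kinases, Jak1, the kinase shared by most class II and gp130 receptors, was at 313, 251 and 223 CPM in microglia of saline replicates 1, 2 and 6 and at 258, 271 and 276 CPM in IL-27 replicates 4, 5 and 10. The groups overlapped, and each of the 6 libraries was above its own level in Muller glia, where Jak1 ranged from 105 to 118 CPM. Microglia were above the mean of the other types by 1.42 on the log2 scale (SE 0.07), and Muller glia by 0.38 (SE 0.06). The neurons lay close together, from 69.0 ± 3.47 CPM in BC to 80.2 ± 11.04 CPM in rods (SD, n = 6). Rods, cones, BC and AC were called below the other types, as were endothelial cells (-0.82, 38 UMIs). Among the neurons the fitted differences did not follow the order of the CPM means. Rods were at -0.43 on the log2 scale, and HC, with a mean of 69.8 CPM, were at 0.03.

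Jak2, which couples to hormone-like cytokine receptors and to gp130, showed a similar order with a wider spread. Its mean was 231 ± 72.9 CPM in microglia, 196 ± 61.4 CPM in pericytes (45 UMIs), 126 ± 54.6 CPM in endothelial cells (61 UMIs), 74.2 ± 18.9 CPM in astrocytes and 72.9 ± 11.9 CPM in Muller glia (SD, n = 6). HC were lowest at 23.2 ± 5.97 CPM, below the mean of the other types (log2 difference -1.23, SE 0.15). Microglia were above by 1.72 (SE 0.09). The call of Muller glia above the other types for Jak2 (0.19, SE 0.08) was lost in 5 of 15 alternatives, among them leaving out IL-27 replicate 5 (0.16) or 10 (0.098). That of pericytes (0.94, SE 0.29) was lost without saline replicate 2 (0.65).

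Tyk2, the partner kinase of interferon and IL-12 family receptors, was at 90.9 ± 6.23 CPM in microglia, 45.5 ± 18.0 CPM in astrocytes and 37.2 ± 2.47 CPM in Muller glia. BC were lowest at 18.3 ± 1.24 CPM. In all 6 libraries microglia exceeded astrocytes for Tyk2, and the microglial excess over the mean of the other types was 1.504 on the log2 scale (SE 0.11). Jak3, the kinase of the common gamma chain of lymphoid cytokine receptors, was counted 36 times in microglia (10.7 ± 3.56 CPM) and 10 times in endothelial cells (18.7 ± 11.7 CPM). No Jak3 UMI was found in 279 astrocytes, which allows a share of up to 1.08% of nuclei with a UMI. Its level in the neurons was at most 2.20 CPM.

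Of the SOCS genes, Socs6 followed the microglial pattern of the kinases, with 132, 167 and 136 CPM in microglia of saline replicates 1, 2 and 6 and 118, 136 and 85.5 CPM in IL-27 replicates 4, 5 and 10. The groups overlapped, and IL-27 replicate 10 was lowest. RGC came next at 62.3 ± 5.89 CPM and AC at 42.4 ± 2.12 CPM (SD, n = 6), and both orders held in 6 of 6 libraries. Microglia were above the mean of the other types by 1.86 (SE 0.11) and RGC by 1.15 (SE 0.08) on the log2 scale. The call of Socs6 above the other types in HC (0.45, SE 0.14) turned to -0.07 when libraries were scaled by their totals alone, and it was lost at 0.36 without IL-27 replicate 4.

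Socs2, the growth hormone feedback inhibitor, was highest in BC, followed by endothelial cells, AC and RGC. BC held 2855 of its UMIs, at 65.3, 65.5 and 60.3 CPM in saline replicates 1, 2 and 6 and 62.2, 71.5 and 64.2 CPM in IL-27 replicates 4, 5 and 10. No group stood apart, and the lowest BC value was above the highest value of any other neuron type. AC were at 39.1 ± 3.61 CPM, RGC at 38.2 ± 4.13 CPM, and endothelial cells were at 42.9 ± 10.7 CPM (21 UMIs), whereas cones were at 3.14 ± 1.99 CPM and HC at 2.74 ± 1.62 CPM. On the log2 scale BC were above the mean of the other types by 2.53 (SE 0.08), RGC by 1.68 (SE 0.10) and AC by 1.60 (SE 0.09), and the cone difference was -2.51 (SE 0.28).

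Within BC and AC, Socs2 was uneven. Among the BC clusters it ranged from 108 ± 10.5 CPM in the cluster with Car8 and Prkca among its leading genes (3054 nuclei; Prkca is a marker of rod bipolar cells) to 3.12 ± 2.28 CPM in the cluster led by Grik1 and Otor (1026 nuclei). AC clusters ranged from 157 ± 19.7 CPM (1145 nuclei, with Spink13 and Esr1 among the leading genes) to 4.81 ± 2.66 CPM (735 nuclei, with Pde11a and Chat among the leading genes; Chat is a marker of starburst amacrine cells). The Car8 and Prkca cluster also had the highest Socs7 level of the BC clusters, 145 ± 10.3 CPM, and the lowest Jak1 level, 48.4 ± 3.64 CPM (SD, n = 6). These cluster values are descriptions, with no test.

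Socs5 was highest in cones and then rods, and Socs7 in rods, cones and BC. Socs5 in cones was at 154, 132 and 125 CPM in saline replicates 1, 2 and 6 and at 147, 133 and 105 CPM in IL-27 replicates 4, 5 and 10. In each library cones exceeded rods, which ranged from 62.5 to 76.4 CPM, and the treatment groups overlapped in both. Cones were above the mean of the other types by 1.78 (SE 0.08) and rods by 0.51 (SE 0.08) on the log2 scale. Socs7 was at 139 ± 15.6 CPM in rods, 126 ± 9.21 CPM in cones and 101 ± 5.66 CPM in BC, and these were above the mean of the other types by 1.07 (SE 0.07), 1.09 (SE 0.08) and 0.99 (SE 0.07). Socs7 was also called above the other types in AC (0.40, SE 0.08). So was Socs5 in Muller glia (0.23, SE 0.08), in 9 of 15 alternatives.

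Socs3, the feedback inhibitor that binds gp130, was at 28.7 ± 28.6 CPM in astrocytes (30 UMIs), 20.3 ± 6.82 CPM in Muller glia (474 UMIs), 18.0 ± 7.18 CPM in cones (147 UMIs) and 12.6 ± 6.80 CPM in rods (257 UMIs). Every other type was at or below 5.81 CPM, and cones exceeded rods in 6 of 6 libraries. The 94 summed pericytes held no Socs3 and no Socs1 UMI, which allows shares of up to 3.19% for each. Socs1, the inhibitor of interferon receptor kinases, was highest in microglia at 9.28 ± 7.20 CPM (30 UMIs) and was counted 159 times in AC (2.25 ± 1.05 CPM). For Jak3, Socs1 and Socs3, which had no UMI in at least 1 type, the fitted difference between a type and the mean of the others is no bound and is not given.

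Neighbours in each gene's order of cell types were compared library by library with a two-sided exact sign-flip permutation test. Of 100 neighbouring pairs, 18 had the same direction in 6 of 6 libraries and reached the smallest exact p of 0.03125. None passed after adjustment over the 100 pairs (smallest adjusted p = 0.174). With 6 libraries the exact p cannot go below 0.03125, so a pass would have needed most of the 100 pairs to reach it. The order came from the same values, so the direction of each pair was not chosen independently of the test. The 18 pairs included cone over rod for Socs5 and Socs3, microglia over RGC for Socs6, BC over endothelial cells for Socs2, and Muller glia over rods for Jak1. For Jak1 and Jak2, microglia and pericytes, which came next, did not differ in the same direction in all libraries.

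Shares of nuclei with at least 1 UMI can rise with depth, but they did not follow it throughout. Socs2 was detected in 2.51% of HC nuclei (median 10036.5 UMIs) and in 21.1% of BC nuclei (median 4267 UMIs). Jak1 was detected in 50.02% of RGC nuclei (median 9948 UMIs) and 41.8% of microglia (median 2087.5 UMIs), but after each nucleus was thinned to 1000 UMIs the shares were 6.18% of RGC (95% exact interval 5.19 to 7.30) and 21.4% of microglia (19.3 to 23.6). Thinning left out 3799 rods, 41 microglia and 11 endothelial nuclei that were shallower. The type with the highest share was the type with the highest CPM for 3 of the 10 genes before thinning and for 8 after it. Intervals on these shares cover counting error only.

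For each gene, the 3 genes with the most similar profile over the 11 types were taken among 11299 genes, by Pearson correlation of log2 (mean CPM + 1). These were Lacc1, Tmem106a and Mapkapk3 for Jak1 (r = 0.96 to 0.97), Atf1, Marcks and Blvrb for Jak2 (0.96 to 0.97), Zfp182, Rcbtb2 and Rassf2 for Tyk2 (0.96 to 0.97), and Pkib, Gnptab and Dock2 for Socs6 (0.94 each). Microglia were the highest type for all 12 of these genes. Triobp, Nrp2 and Synj2 were nearest to Socs2 (0.90 to 0.92), Lrp2, Padi2 and Med25 to Socs3 (0.94 to 0.95), Calcoco1, Egr1 and Opn1sw to Socs5 (0.90 to 0.92), and Xrcc6, Paxx and Gm17021 to Socs7 (0.96 to 0.97). The sparse genes Jak3 (Dazap1, Sp100 and Chmp3, 0.94 to 0.96) and Socs1 (Rps6ka1, Golm1 and Mtm1, 0.94 to 0.96) gave values that rest on few UMIs. Among the 10 genes themselves, the most similar pair was Jak1 and Tyk2 (r = 0.80 over 11 types). All these correlations are over types that share the same 6 libraries.

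The main question of the design, whether IL-27 altered these genes, was addressed on the sum over all 11 types. None of the 10 genes passed an adjusted p of 0.05 in edgeR's quasi-likelihood test, and 0% of the 20103 genes tested did. At an unadjusted p under 0.05, 266 genes were higher and 336 lower, with none of the 10 among these 2.99% of genes. In the alternatives Jak3 reached that level in 5 of 16 and Socs3 in 1 of 16 (without IL-27 replicate 4). DESeq2 called 3 genes higher and 15 lower, again with none of the 10. In bulk sums of this kind, fewer cells of a type and less RNA per cell cannot be told apart.

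**Figure D2:**
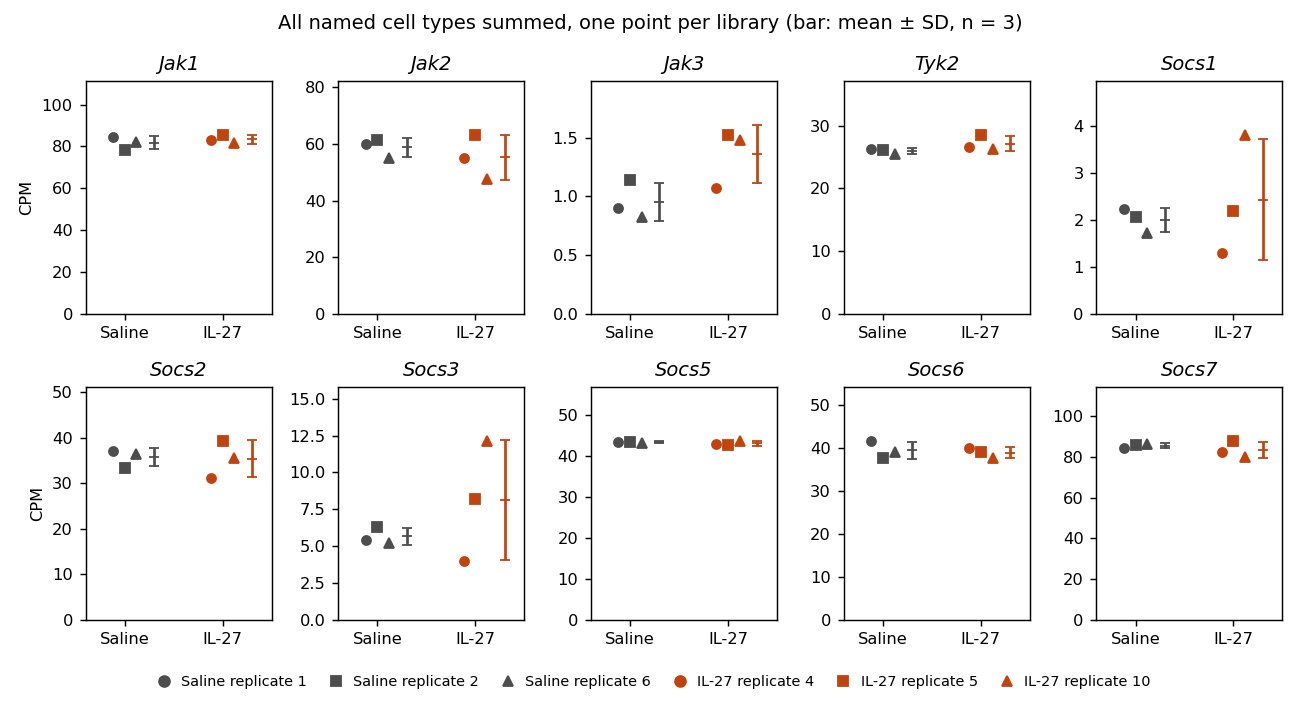
CPM of each gene summed over all 11 cell types, 1 point per library, with bars at the mean and whiskers at the SD (n = 3 saline and n = 3 IL-27 libraries). Saline and IL-27 libraries overlap for every gene but Tyk2, and Socs3 ranges from 4.02 to 12.1 CPM among the IL-27 libraries.

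The kinases were close between groups except for Jak3. Jak1 was at 84.6, 78.4 and 82.3 CPM in saline replicates 1, 2 and 6 and at 83.2, 85.6 and 81.4 CPM in IL-27 replicates 4, 5 and 10, and the groups overlapped. The log2 difference, IL-27 over saline, was 0.02 (SE 0.07, 95% interval -0.13 to 0.17). For Jak2 the libraries were at 60.1, 61.2 and 55.1 CPM with saline and 55.0, 63.3 and 47.4 CPM with IL-27, where IL-27 replicates 5 and 10 were the highest and lowest of all 6. Its log2 difference was -0.09 (SE 0.12, 95% interval -0.36 to 0.17).

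Tyk2 was at 26.30, 26.19 and 25.40 CPM with saline and 26.51, 28.55 and 26.32 CPM with IL-27. It was the only one of the 10 whose groups did not overlap, by a narrow gap, where 7.87% of all genes tested did not overlap. The log2 difference was 0.06 (SE 0.08, 95% interval -0.12 to 0.23). Jak3 was at 0.901, 1.14 and 0.826 CPM with saline and 1.07, 1.53 and 1.479 CPM with IL-27 (28 to 52 UMIs per library). Its groups overlapped, and its log2 difference of 0.50 (SE 0.23, 95% interval -0.03 to 1.03) had the smallest unadjusted p of the 10 in the edgeR model, 0.05995 (adjusted p = 0.9999).

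Of the SOCS genes, Socs2, Socs5, Socs6 and Socs7 differed little between the groups. Socs5 ranged from 42.6 to 43.7 CPM over the 6 libraries, with a log2 difference of -0.02 (SE 0.06, 95% interval -0.16 to 0.13). The log2 differences were -0.02 for Socs2 (95% interval -0.25 to 0.20), -0.03 for Socs6 (-0.20 to 0.15) and -0.04 for Socs7 (-0.20 to 0.12). For these 4 genes, and for Jak1 and Tyk2, the interval lies within 0.25 of 0 on the log2 scale. When each type was given the same weight, the groups of Jak2, Socs2, Socs5 and Socs7 did not overlap and the IL-27 libraries were lower (exact permutation p = 0.1, the smallest possible), where 9.12% of genes did not overlap. Such a mean gives types with very few UMIs the same say as rods. In pericytes Socs2 had 4 UMIs with saline and 0 with IL-27, Socs5 10 and 4, Socs7 3 and 2, and Jak2 27 and 18. How far such types account for the lower values was not tested.

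Socs1 and Socs3 spread most among the IL-27 libraries. Socs3 was at 5.43, 6.33 and 5.22 CPM in saline replicates 1, 2 and 6 and at 4.02, 8.19 and 12.1 CPM in IL-27 replicates 4, 5 and 10. The IL-27 libraries held both the lowest and the highest value, and the saline libraries lay between them and close together. The log2 difference was 0.50 (SE 0.32, 95% interval -0.23 to 1.23), and it went from 0.13 without IL-27 replicate 10 to 0.82 without IL-27 replicate 4 (unadjusted p = 0.00242 and adjusted p = 0.981 in edgeR). Socs1 was at 2.23, 2.06 and 1.71 CPM with saline and 1.29, 2.20 and 3.82 CPM with IL-27, again with IL-27 replicate 4 lowest and replicate 10 highest, and its log2 difference was 0.26 (SE 0.33, 95% interval -0.51 to 1.02).

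IL-27 and saline were then compared within each type. The count filter kept 67 of the 110 pairs of a gene and a type, in 10 types, and none was called (adjusted p from 0.329 upward). In microglia it left out Jak3 (13 UMIs with saline and 23 with IL-27), Socs1 (18 and 12) and Socs3 (10 and 11). In endothelial cells it kept Jak2 alone, and in pericytes no gene. The pairs left out were not tested in this fit, so it says nothing about them. The share of all genes called was 0.00754% in rods, 0.0067% in BC, 0.00591% in AC and 0.0286% in Muller glia and 0% in cones, HC, RGC, astrocytes, microglia and endothelial cells. Of the 67 differences, 37 were higher and 30 lower with IL-27, and 2 had an unadjusted p under 0.05 in the edgeR model, Socs5 in Muller glia, where 9.35% of genes did, and Socs3 in BC, where 3.21% did (4.15% of all genes over the 10 types). DESeq2 also called none of the 67. The share called in Muller glia depended on the fit, with 32 genes higher and 78 lower in DESeq2 and, in edgeR without IL-27 replicate 10, 116 higher and 330 lower of 14289, but none of the 10 genes was called in either. Whether a difference varied among cell types was tested in a model of all types, with library and type as terms. None of the 10 genes passed (smallest adjusted p = 0.831, Socs5), where 0.914% of 15535 genes did.

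**Figure D3:**
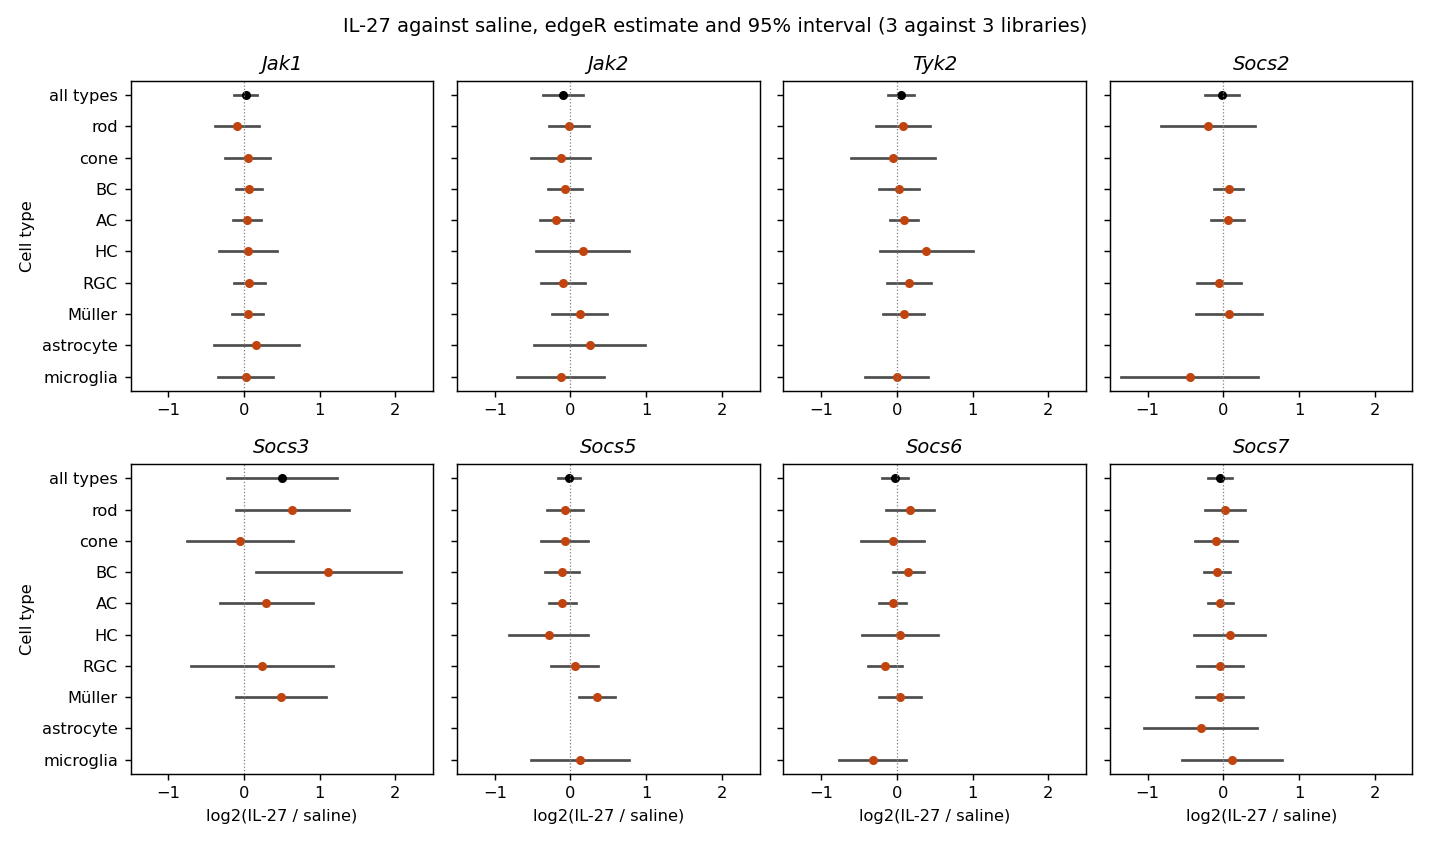
Log2 difference between IL-27 and saline libraries (IL-27 over saline) from edgeR with its 95% interval, for 8 of the genes in all types summed and in 9 types. Endothelial cells, where Jak2 alone could be tested, are not drawn. Among pairs with an interval, those of Socs5 in Muller glia (0.11 to 0.59) and Socs3 in BC (0.16 to 2.08) leave out 0.

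Socs3 in Muller glia was at 15.0, 17.8 and 18.6 CPM in saline replicates 1, 2 and 6 and at 13.5, 31.1 and 26.0 CPM in IL-27 replicates 4, 5 and 10. In BC it was at 1.51, 3.06 and 2.12 CPM with saline and 1.57, 5.19 and 7.41 CPM with IL-27 (10 to 48 UMIs per library). In both types IL-27 replicates 5 and 10 were above all saline libraries and IL-27 replicate 4 was not. The log2 difference was 0.49 in Muller glia (SE 0.26, 95% interval -0.10 to 1.08) and 1.12 in BC (SE 0.44, 95% interval 0.16 to 2.08, unadjusted p = 0.0264 in the edgeR model, adjusted p = 0.999). The BC difference had an unadjusted p under 0.05 in 9 of 14 alternatives, and that was lost with no doublets removed and when either of saline replicates 1 (0.90) and 6 (1.09) or either of IL-27 replicates 5 (1.03) and 10 (0.70) was left out.

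In photoreceptors, Socs3 was at 10.3, 12.2 and 7.29 CPM in rods with saline and at 7.45, 12.4 and 25.7 CPM with IL-27. Cones were at 16.9, 19.5 and 17.9 CPM with saline and at 8.62, 14.7 and 30.5 CPM with IL-27. IL-27 replicate 10 was highest in rods, cones, BC, AC and RGC. Without that library the rod log2 difference went from 0.64 to -0.05. In astrocytes, IL-27 replicates 5 and 10 held 9 and 12 of the 30 Socs3 UMIs, too few for a test.

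**Figure D4:**
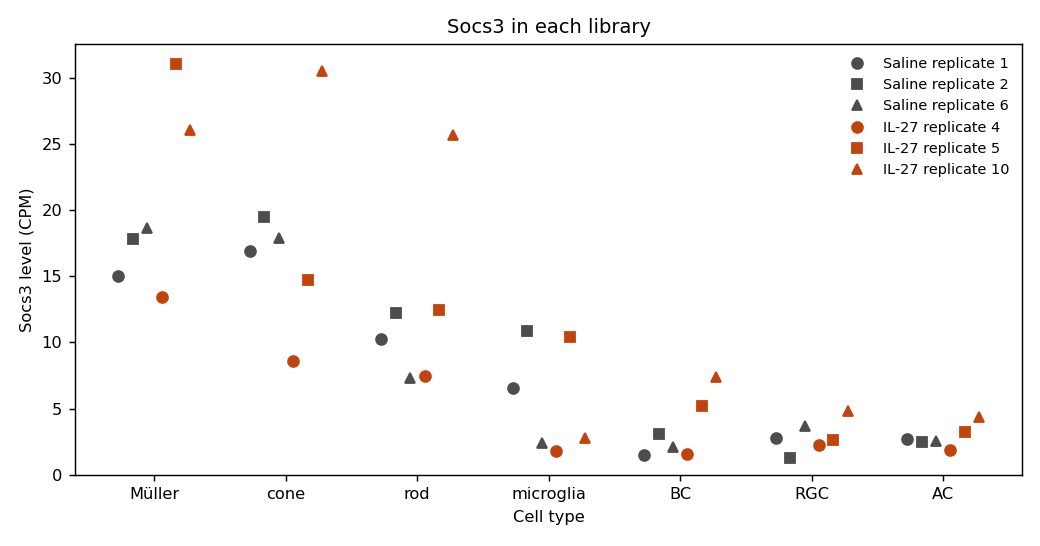
Socs3 CPM per library in 7 cell types, with saline and IL-27 libraries marked. IL-27 replicate 10 is the highest library in rods (25.7 CPM) and cones (30.5 CPM), IL-27 replicate 5 in Muller glia (31.1 CPM), and IL-27 replicate 4 lies among or below the saline libraries.

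Jak2 in microglia was at 265, 212 and 259 CPM in saline replicates 1, 2 and 6 and at 246, 308 and 96.6 CPM in IL-27 replicates 4, 5 and 10. IL-27 replicate 10 (35 UMIs) was far below the other 5 libraries, and it was also the lowest of the 6 in rods, cones, BC, AC and RGC. The microglial log2 difference was -0.13 (SE 0.27, 95% interval -0.70 to 0.45). It was 0.19 without IL-27 replicate 10. The part of that library's lower depth in its Jak2 level was not tested.

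Among the tested pairs, groups that did not overlap were also seen outside Muller glia. In AC, Jak2 was lower in each IL-27 library (47.8 to 61.9 CPM, against 62.3 to 63.8 CPM with saline) and Tyk2 higher, where 8.36% of genes did not overlap. Tyk2 was also higher in each IL-27 library in HC (9.54%) and RGC (8.75%), and the groups of Socs6 did not overlap in BC (8.76%). All these had exact permutation p = 0.1, the smallest possible, and none was called.

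Muller glia gave the smallest p of the 67 pairs. Socs5 was at 41.5, 44.1 and 40.8 CPM in saline replicates 1, 2 and 6 and at 48.8, 52.9 and 57.0 CPM in IL-27 replicates 4, 5 and 10. The groups did not overlap, as was true of 13.8% of genes in Muller glia. The log2 difference was 0.35 (SE 0.11, 95% interval 0.11 to 0.59, unadjusted p = 0.00901 and adjusted p = 0.329 in the edgeR model). Outside the Muller subcluster marked by Fbln1, described next, the values were 43.5, 48.4 and 42.8 CPM with saline and 47.6, 53.1 and 61.8 CPM with IL-27, and the groups overlapped (exact permutation p = 0.2). The unadjusted p was under 0.05 in 15 of 16 alternatives, at log2 differences from 0.27 to 0.39 over the 16. It was lost with that subcluster left out (unadjusted p = 0.0539 in edgeR). No alternative called the gene after adjustment.

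Muller nuclei were divided into 5 subclusters, again without the 10 genes. Subcluster 1 (2069 nuclei) was led by Abca8a, Lsamp and Glul, subcluster 2 (1692) by Nav2, Rorb and Tmtc2 with Cd44 among its leading genes, subcluster 3 (846) by Zfp804b, Adamts19 and Unc13c, subcluster 4 (652) by Frmpd4 and Mecom with Reln and Fbln1, and subcluster 5 (167) by the interferon-stimulated genes Rsad2 and Herc6. Subcluster 4 was low in the Muller marker Rlbp1, at a mean log-normalized level of 0.18 against 0.89 to 1.36 in the others. Its Glul level (1.64) lay within their range (1.22 to 2.54). Among the clusters of all nuclei, the cluster of 651 nuclei with Fbln1 among its top genes met 6 Muller markers, against 9 in the main Muller cluster. The mean z-score of the Muller markers was 0.85 there, against 3.28. Whether these nuclei are Muller glia was not tested, and the Muller sums include them unless stated. Of 41 pairs of a gene and a subcluster tested against the other Muller nuclei of the same library, 15 were called, 3 of 8 genes in subcluster 1 (21.3% of all genes), 3 of 8 in subcluster 2 (15.6%), 0 of 8 in subcluster 3 (9.15%), 5 of 8 in subcluster 4 (40.2%) and 4 of 9 in subcluster 5 (11.4%). The fits for subclusters 4 and 5 used 5 libraries, since IL-27 replicate 5 and IL-27 replicate 4, respectively, had under 10 nuclei there. As with the types, the nuclei had been grouped by other genes of the same libraries, so these tests are not independent of the clustering.

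Jak2 was high in the interferon-gene subcluster 5, with 197, 308 and 95.2 CPM in saline replicates 1, 2 and 6 and 135, 311 and 213 CPM in IL-27 replicates 4, 5 and 10. It exceeded the level in the remaining Muller nuclei of the same library in all 6, and the groups overlapped. Over the 5 libraries of the fit the means were 225 ± 89.7 CPM inside and 68.0 ± 8.31 CPM outside (SD, n = 5), with a log2 difference of 1.76 (SE 0.18, adjusted p = 1.7e-10 in edgeR). That call held in 6 of 6 alternatives (DESeq2 and each library of the fit left out), at 1.64 to 1.90. Socs5 was also higher in subcluster 5, at 86.1 ± 16.8 CPM against 45.5 ± 6.41 CPM (log2 difference 0.97, SE 0.23, 6 of 6), as was Socs1 (2.81, SE 0.62, 6 of 6), which rests on 15 UMIs. Jak1 and Tyk2 were at 109 ± 23.5 and 41.1 ± 4.69 CPM in subcluster 5 and were not called there.

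Socs3 was higher in subcluster 2, at 31.0 ± 8.86 CPM against 14.2 ± 3.46 CPM in the other Muller nuclei (SD, n = 6; log2 difference 1.08, SE 0.16), and lower in subcluster 1, at 9.17 ± 4.12 CPM against 26.0 ± 7.50 CPM (log2 difference -1.25, SE 0.19). Both calls held in 7 of 7 alternatives. Socs5 was also higher in subcluster 2, at 59.8 ± 9.76 CPM against 40.3 ± 2.86 CPM (log2 difference 0.57, SE 0.10, 7 of 7). Socs2 was higher in subcluster 2 (log2 difference 0.78, 5 of 7) and in subcluster 5 (1.32, 1 of 6, 23 UMIs). In subcluster 1, Jak1 was higher (log2 difference 0.37, SE 0.07, 7 of 7) and Socs5 lower (-0.31, 3 of 7). In subcluster 4, Jak2 was lower (log2 difference -0.62, SE 0.19, 6 of 6), whereas the lower calls there held in 1 of 6 alternatives for Jak1 and in 3 of 6 for Tyk2 and Socs2. The lower call of Socs5 in subcluster 4 (-0.87, 5 of 6) had the opposite sign to its means, 50.5 ± 62.4 CPM inside and 48.8 ± 7.64 CPM outside (SD, n = 5), and IL-27 replicate 4, with 10 summed nuclei, was at 162 CPM there against 12.9 to 29.97 CPM in the other 4 libraries.

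**Figure D5:**
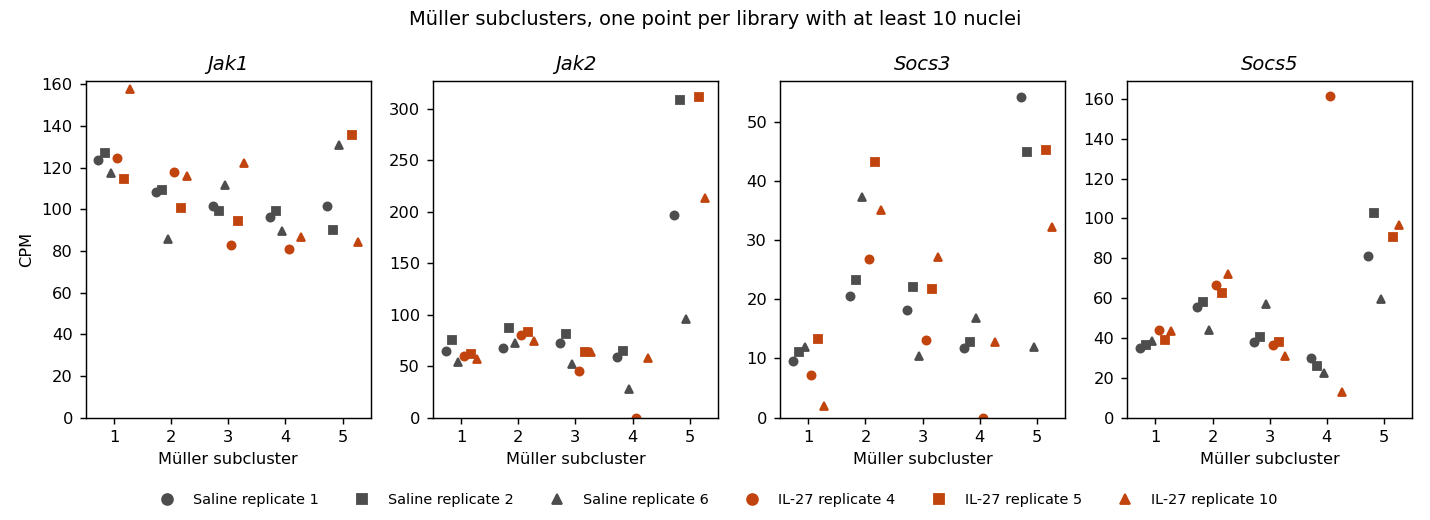
CPM of Jak1, Jak2, Socs3 and Socs5 in Muller subclusters 1 to 5, 1 point per library with at least 10 nuclei in the subcluster. Jak2 averages 225 CPM in subcluster 5, and Socs3 averages 31.0 CPM in subcluster 2 and 9.17 CPM in subcluster 1.

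Subclusters took different shares of the Muller nuclei from each library. Subcluster 2 made up 23.6, 29.0 and 23.6% of summed Muller nuclei in saline replicates 1, 2 and 6 and 22.7, 48.5 and 46.6% in IL-27 replicates 4, 5 and 10 (exact permutation p = 0.4). The 2 libraries with the highest share were those with the highest Muller Socs3. Inside subcluster 2, Socs3 was at 20.5, 23.2 and 37.3 CPM with saline and 26.9, 43.2 and 35.1 CPM with IL-27 (exact permutation p = 0.3). Outside it, the values were 13.0, 15.2 and 12.4 CPM with saline and 8.97, 18.6 and 16.9 CPM with IL-27 (exact permutation p = 0.7), and the groups overlapped in both. For Socs5 the groups did not overlap either inside or outside subcluster 2, and the IL-27 libraries were higher (exact permutation p = 0.1 for each, the smallest possible). Over all Muller nuclei 13.8% of genes did not overlap, and the share inside or outside subcluster 2 was not computed. The nuclei outside subcluster 2 include subcluster 4. Subcluster 4 made up 18.8, 21.4 and 10.98% with saline and 1.29, 0.368 and 12.1% with IL-27 (exact permutation p = 0.2).

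The other genes of the pathway were taken from 5 lists of 67 genes. On the sum over all types 63 were tested and none was called, with 38 higher and 25 lower. The 7 STATs had a median log2 difference of 0.11 (4 higher, 3 lower), the 8 tested SOCS box and ubiquitin ligase partners -0.02 (2 higher, 6 lower), the 16 other inhibitors and phosphatases 0.02 (8 higher, 8 lower), the 19 tested JAK-coupled receptors 0.09 (15 higher, 4 lower) and the 13 tested STAT-responsive genes 0.08 (9 higher, 4 lower). The 10 JAK and SOCS genes had a median of 0.0018 (5 higher, 5 lower), against -0.0018 for all genes tested. In edgeR's quasi-likelihood fit the log2 difference of Il4ra, the interleukin 4 receptor chain (0.51), was the only one of the lists at an unadjusted p under 0.05, and next came Ifngr1 (0.18) and Ifngr2 (0.20), the interferon gamma receptor chains.

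Within types, 433 pairs of a pathway gene and a type were tested and none was called, with 28 at an unadjusted p under 0.05, against the 4.15% of all genes over the 10 types given above. Among the smallest p values in HC was that of Stat2, a transcription factor of the interferon response (log2 difference 1.10, adjusted p = 0.292 in edgeR). In RGC the smallest p was that of Junb, an immediate early gene (-1.06, unadjusted p = 0.000111 in edgeR, adjusted p = 0.999). In Muller glia the smallest were those of Ptprk, a receptor phosphatase (-1.68, adjusted p = 0.260), Osmr, the oncostatin M receptor (0.38, adjusted p = 0.298), and Rnf7 (-0.38), the ring finger partner of the SOCS box ligase.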

How the data were processed

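Nuclei were isolated from frozen retinas and sequenced as 10x Genomics 3′ libraries. The authors deposited filtered matrices of UMI counts per gene and nucleus, not normalized; the labels name Cell Ranger 9.0.1 and Seurat 5.2.1, the matrix headers Cell Ranger 8.0.1, and the genome build is not given in the sources used here. Nuclei with at most 500 UMIs, under 200 genes or at least 5% mitochondrial UMIs were left out, then 3984 doublets by Scrublet score (8% of each library, reduced for pairs of like nuclei). The rest were clustered in scanpy 1.11.5 (2000 variable genes without the 10 genes and the pathway lists, 25 principal components, no integration of libraries, Louvain resolution 0.25, 27 clusters) and named from marker lists. Components were rounded to 4 decimals and neighbour weights to 5, a choice made after a coarser rounding (3 and 3) had been seen to set aside 807 more AC nuclei as mixed; 47 mixed nuclei were set aside. Nuclei over 2 median absolute deviations from their type's median log2 total were left out, and the counts of 48805 nuclei were summed per library. Sums were tested in edgeR 4.0.16 (filterByExpr at 10 counts, TMM, Benjamini-Hochberg over all genes tested), with DESeq2 1.42.0 as an alternative. The edgeR tests of treatment and of cell types were checked on simulated data, with changes set only in genes of higher level. DESeq2 was not checked in this way. The p-values of the treatment tests measure the spread between libraries. Tests of cell types, of a varying difference and of Muller subclusters had the library as a term, and their p-values rest on the spread left after it. The sign-flip test used differences within each library. The 10 genes, the lists and the tests were chosen with earlier results of these data known. All 10 genes are named in every comparison, and of the other pathway genes at most 3 per comparison, by smallest p; 1 gene that this rule picked is not reported here.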

Additional observations from a re-analysis of the deposited data

Results flagged for a closer look

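Among the pathway genes, the difference between IL-27 and saline varied among cell types for Ptprk, a receptor phosphatase (edgeR quasi-likelihood F test, adjusted p = 0.00109). Of all 15535 genes tested, 0.914% were called in this test. Ptprk in Muller glia was at 153, 211 and 99.5 CPM in saline replicates 1, 2 and 6 and at 19.6, 32.9 and 92.1 CPM in IL-27 replicates 4, 5 and 10. The groups did not overlap there, as was true of 13.8% of genes in Muller glia, and IL-27 replicate 10 was close to saline replicate 6. Within Muller glia alone the log2 difference was -1.68 (95% interval -2.70 to -0.67, adjusted p = 0.260). Over the libraries, Ptprk was at 899 CPM in Muller subcluster 4 and at 16.3 to 37.3 CPM in the other subclusters, and that subcluster made up 10.98 to 21.4% of summed Muller nuclei in the saline libraries and 0.368 to 12.1% in the IL-27 libraries. With that subcluster left out, the Muller log2 difference was -0.02 (95% interval -0.45 to 0.42, adjusted p = 0.996 in edgeR). The adjusted p of the varying difference was 0.769 with DESeq2, 0.0280 with no doublets removed, 0.181 without saline replicate 2, 0.152 without IL-27 replicate 4 and 0.227 without IL-27 replicate 5. None of the 10 JAK and SOCS genes was picked out in this way.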

How the results depend on the processing

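The count of JAK and SOCS genes called between IL-27 and saline stayed at 0 in all types summed, within each type and for a difference varying among types, in every alternative run (DESeq2, other scaling, other count filters, all retained nuclei, no doublets removed, Louvain resolution 0.5, a coarser neighbour graph, each library left out). The pairs called above the other types numbered 26 to 31, against 30. Pairs called in Muller subclusters numbered 8 with DESeq2 and 11 to 16 when a library was left out, against 15, and the cause was not tested. The finer rounding of the neighbour graph was chosen after seeing the data. With the coarser rounding 846 of 52221 nuclei got another class, 807 of them AC set aside as mixed, and there were 31 clusters; 30 pairs were called above the other types and 15 in Muller subclusters, where Jak2 in the Rsad2 subcluster was at 1.76 and Socs3 in the Nav2 subcluster at 1.04 on the log2 scale. The share of nuclei with a UMI peaked in the type of highest CPM for 8 genes after thinning, against 3 before it. Thinning set all nuclei to the same depth and also left out the shallower ones, and the cause of the change was not tested. Some uncalled differences changed sign. With all retained nuclei, pooled Socs6 was at 0.0083 and microglial Jak2 at 0.039, and with every retained nucleus pooled Socs6 was at 0.0084. The called excess of Socs6 in HC was at -0.073 with library totals. With a library left out, pooled log2 differences ranged from -0.013 to 0.059 for Jak1, -0.21 to 0.023 for Jak2, -0.18 to 0.56 for Socs1, 0.13 to 0.82 for Socs3, -0.12 to 0.055 for Socs2, -0.061 to 0.019 for Socs6 and -0.091 to 0.0064 for Socs7, and those of Socs3 in rods from -0.050 to 0.98 and of Jak2 in microglia from -0.48 to 0.19. IL-27 replicate 10 gave a value of opposite sign for Jak2, Socs1, Socs6, Socs7, rod Socs3 and microglial Jak2 when left out. No paired analysis was possible because the saline and IL-27 libraries share no replicate numbers. When each of the 11 types was given the same weight, the log2 difference was 1.05 for Jak3, -0.32 for Socs2, -0.23 for Socs5, -0.24 for Jak2 and 0.68 for Socs3; this mean gives pericytes and endothelial cells, with the fewest UMIs, the same say as rods. Leaving out microglia rich in rod genes removed 0 nuclei. The pooled intervals of Jak3, Socs1 and Socs3, the 3 genes with the fewest UMIs, span over 1 on the log2 scale, and the IL-27 libraries of Socs1 and Socs3 also spread widely.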
